A study of Sus scrofa with 67 samples.

Results

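The proteasome genes described here are the 42 of 18158 gene symbols in the deposited read count table that begin with PSMA to PSMG followed by a digit. The muscle was longissimus dorsi, the long back muscle, of 67 Swiss Large White pigs from 20 litters, of which 33 were females and 34 castrated males, and its RNA was sequenced as 1 library per pig. Litter and sex were not known here for single libraries and entered no model, so littermates were treated as independent. All groups were weaned pigs of this breed except that the labels do not explain the 7 libraries named BL, whose age and diet are not known here. In weeks 1 to 4 after weaning, STD pigs (n = 6) ate a standard diet, and LP pigs (n = 6) ate a low protein diet that held 81% of the total and 79% of the digestible crude protein of the standard one, with digestible amino acids kept at requirement. In weeks 5 to 8, STD-STD pigs (n = 12) stayed on the standard diet. LP-STD pigs (n = 12) came from the low protein diet and were moved to the standard diet. LP-STD10+ and LP-STD20+ pigs (n = 12 each) also came from the low protein diet, and then ate a standard diet with 10% or 20% more digestible lysine and with the other essential amino acids above requirement. No group carried a genetic change, and feed was freely available.

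The proteasome is the large protease that degrades proteins tagged with ubiquitin. Its 20S core is a barrel of alpha rings, which gate the entry, around beta rings, which hold the cutting sites, and a 19S cap recognises tagged proteins, unfolds them with a ring of ATPases and feeds them in. In skeletal muscle it takes apart much of the contractile machinery during wasting, and the transcription factor NFE2L1 is known from human and mouse cells to raise subunit genes together when proteasome capacity falls short.

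By role, the 42 genes comprised 6 alpha ring genes, 4 non-catalytic and 2 constitutive catalytic beta ring genes, the 3 inducible catalytic genes of the immunoproteasome and the thymus catalytic gene PSMB11. The 19S cap was represented by 4 ATPases and 10 other subunits. The rest were 3 activators, the inhibitor PSMF1, 3 assembly chaperones of the core, 3 of the cap, and PSMC3IP and PSME3IP1, which share the symbol pattern and are not proteasome subunits (PSMC3IP acts in meiotic recombination). Another 8 genes of the complex (PSMA2, PSMA6, PSMB5, PSMC3, PSMC4, PSMD2, PSME2 and PSMG1) were not analysed here. The genes lie on many chromosomes of the Sscrofa11.1 build, among them PSMB8 (chr7:25058456-25061666) and PSMB9 (chr7:25072133-25077508) near each other, PSME4 (chr3:87231510-87337709), PSMD11 (chr12:42498711-42529853) and PSMC5 (chr12:15101946-15106326).

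Of the 42 genes, 40 passed the filter on low counts. The other two, PSMA8, an alpha subunit of germ cells, and PSMB11, the catalytic subunit of thymic epithelium, had no read in any of the 67 libraries, which allows a level of up to 0.112 CPM (the reads of a gene scaled to a common library size) in the shallowest library, for counting error only. Total counts were 26680567 to 36935497 per library. Levels below are CPM scaled by TMM factors, which adjust for RNA composition. They are not divided by transcript length, so they compare libraries and not genes. Muscle fibre markers were high in every group, with summed levels of 127004 to 345444 CPM, and the summed leukocyte markers were 373.8 to 864.1 CPM. CD74 alone made up 312 to 579 CPM of the leukocyte sum. In bulk tissue fewer cells of a type and less RNA per cell cannot be told apart.

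One library stood apart in these genes before any comparison. In BL replicate 4 the level of 26 of the 40 genes was more than 2-fold above the mean of the other 6 BL libraries, where 10.1% of all 13517 genes were that much higher and 20.8% that much lower. With BL replicate 4 set aside, none of the 40 genes was more than 2-fold higher in any of the 6 other BL libraries against the mean of the remaining 5, where 1.92% to 4.99% of all genes were. In 33 of the 40 genes BL replicate 4 was above all the other 6 BL libraries, as it was in 31.1% of all genes. In 30 of the 40 genes BL replicate 4 was the highest of all 67 libraries, as it was in 17.7% of all genes. Results that involve BL are therefore given with and without this library, a choice made after seeing the data. The labels say nothing of the state of this pig, and whether its label is right was not tested, so its values are those of the library labelled BL4.

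**Figure D1:**
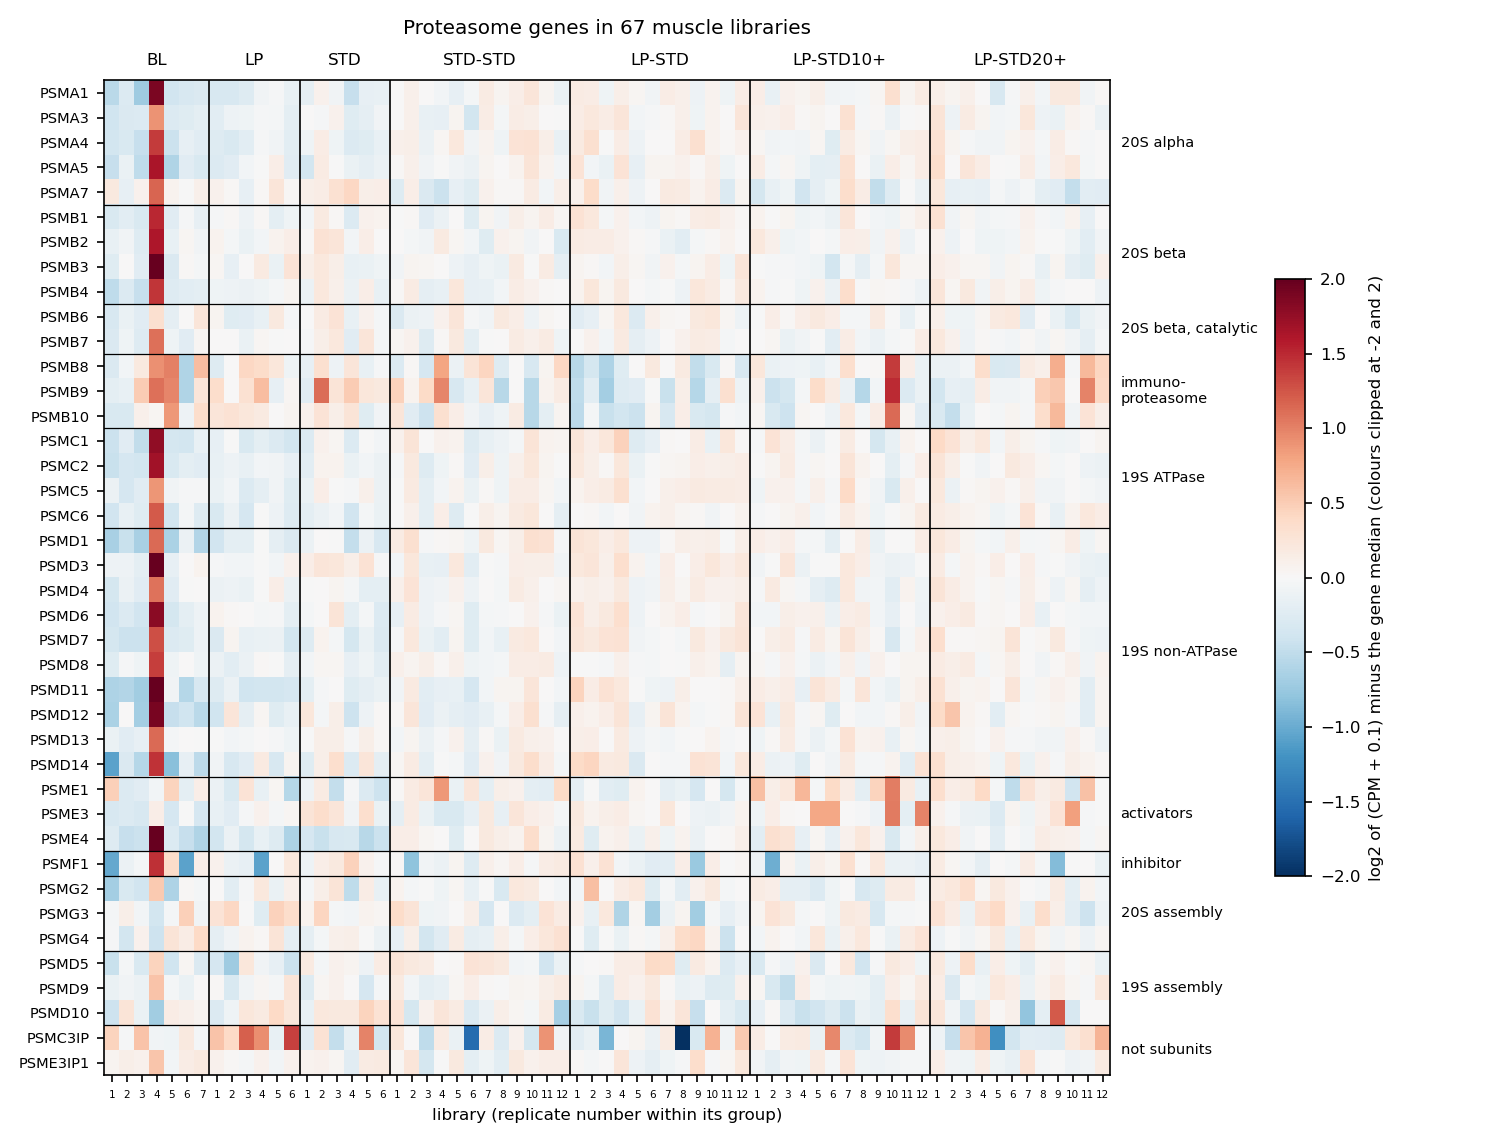
Levels of the 40 proteasome genes that passed the filter (rows, by role) in the 67 libraries (columns, by group), as log2 of (CPM + 0.1) minus the median of the gene, with colours clipped at -2 and 2. BL replicate 4 is a dark column through most 20S and 19S rows, and LP-STD10+ replicate 10 is high in the 3 immunoproteasome rows.

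The higher levels in BL replicate 4 ran through the structural parts of the core and the cap. All 5 measured alpha ring genes, all 4 non-catalytic beta ring genes, all 4 ATPases and all 10 other cap subunits exceeded 2-fold, with medians over each role of 3.30, 3.33, 3.37 and 3.55-fold. These are values of 1 library, with no test.

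The largest ratio was that of PSME4, which encodes PA200, an activator that opens the core without ATP. Its level was 813 CPM in BL replicate 4 and 64.4 to 81.5 CPM in the other BL libraries, an 11.0-fold ratio. PSMD11, a scaffold subunit of the cap, was at 547 CPM against 67.0 to 103 CPM, a 6.95-fold ratio. Both genes were also far above the 60 libraries of the other groups, as the next genes were.

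Among other cap subunits, PSMD12 was at 130 CPM against 21.6 to 35.1 CPM in the rest of BL, a 5.06-fold ratio. PSMD3 was at 476 CPM against 101 to 121 CPM, and PSMC1, an ATPase, was at 224 CPM against 46.5 to 58.9 CPM. In the core, PSMA1 was at 144 CPM against 23.8 to 32.3 CPM, a 4.90-fold ratio. PSMB3 stood at a 4.51-fold ratio. None of these ranges overlapped the value of the library that stood apart.

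Of the constitutive catalytic genes, PSMB7, the trypsin-like subunit, was 2.37-fold higher and PSMB6, the caspase-like subunit, was 1.34-fold higher, at 97.0 CPM against 62.0 to 91.0 CPM. The interferon-inducible subunits PSMB8, PSMB9 and PSMB10 were at 1.59, 1.86 and 0.92 times the mean of the other BL libraries. Those of PSMB8 and PSMB10 lay inside the range of the other 6, while PSMB9 lay above it.

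The regulators were mixed. PSMF1, the PI31 protein that inhibits the core in vitro, was 3.17-fold higher. PSME1, the PA28 alpha subunit that interferon induces, was at 0.90 times the other BL mean, and PSME3, the nuclear PA28 gamma, at 1.31 times. No assembly chaperone exceeded 2-fold. PSMG2 was at 1.79 times, PSMD5 at 1.60 and PSMD9 at 1.58 times, whereas PSMG3, PSMG4 and PSMD10 were at 0.73, 0.70 and 0.60 times. PSMC3IP and PSME3IP1, the pair that are no subunits, were at 0.79 and 1.38 times.

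**Figure D2:**
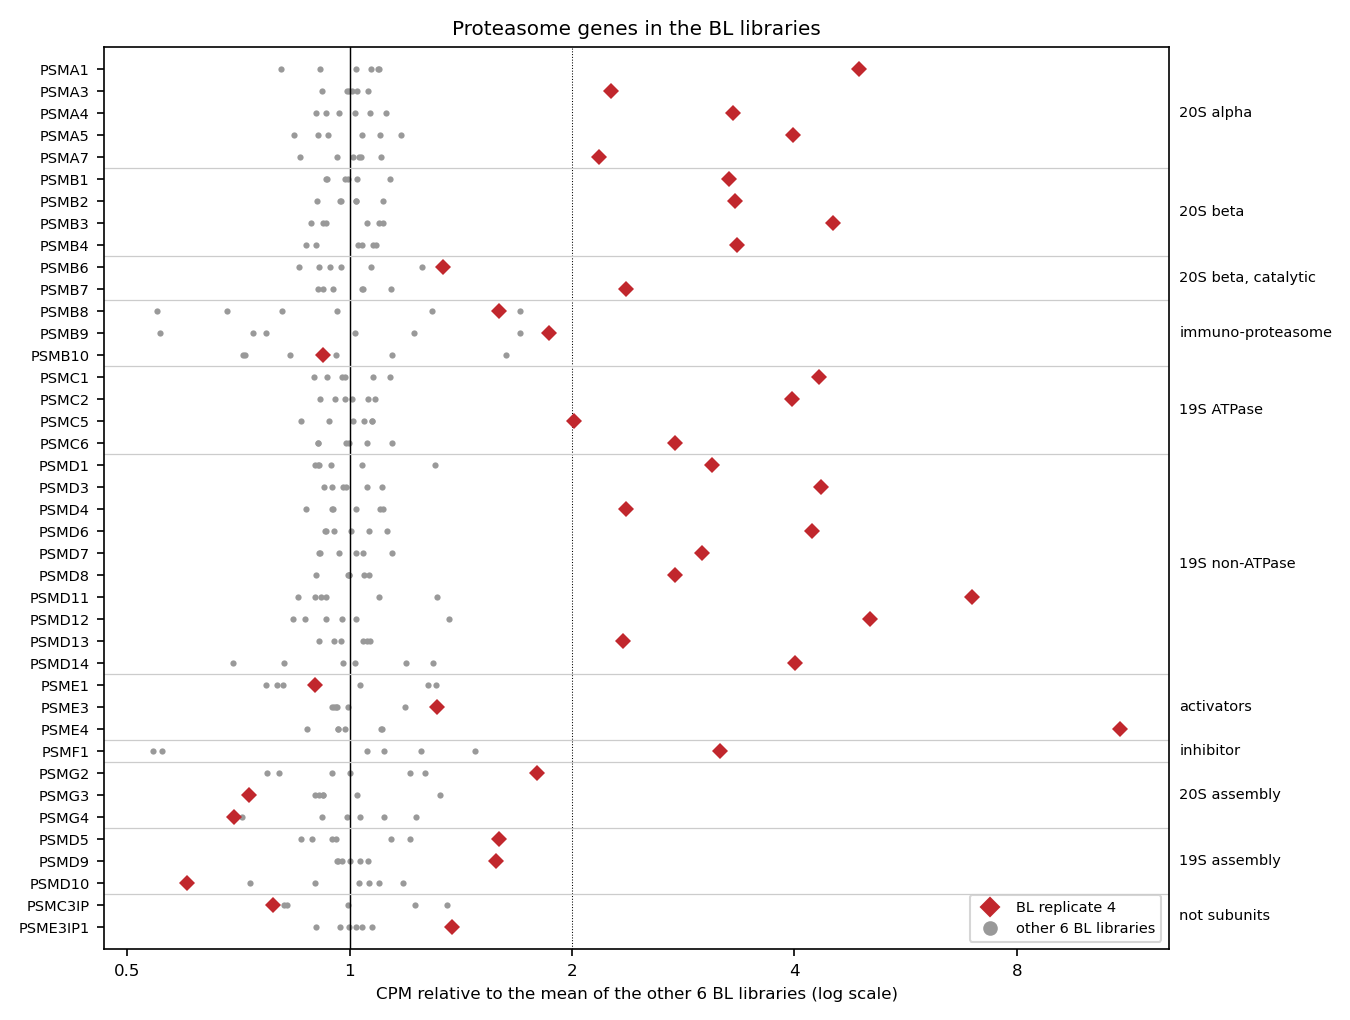
CPM of each proteasome gene in BL replicate 4 (red diamonds) and in the other 6 BL libraries (grey points), divided by the mean of those 6, on a log axis, with genes grouped by role. Of the 40 genes, 26 diamonds lie right of the dotted line at 2-fold, PSME4 farthest at 11.0-fold, while the immunoproteasome and assembly genes lie left of it.

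Partners of the proteasome were high in the same library. Of the 10 measured proteasome-associated proteins 6 were more than 2-fold above the other BL mean. ADRM1, the ubiquitin receptor of the cap, was at 247 CPM against 40.9 to 65.9 CPM, and POMP, which matures the core, was at 121 CPM against 29.4 to 40.1 CPM. Of 8 regulators of proteasome transcription 4 exceeded 2-fold. NFE2L1 was at 794 CPM against 168 to 219 CPM in the other BL libraries, and the small MAF proteins that bind DNA with it were also higher, with MAFF at 47.2 CPM against 2.86 to 6.93 CPM. NFE2L2, a related factor of the oxidative stress response, was at 98.4 CPM against 57.6 to 75.6 CPM.

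Ubiquitin delivery genes followed the same direction in part. Of 5 shuttle factors 3 exceeded 2-fold, among them UBQLN1 at 241 CPM against 41.4 to 50.2 CPM. Of 8 genes of the VCP complex, which extracts tagged proteins, 4 did so, with VCP itself at 700 CPM against 210 to 286 CPM. In contrast, UBA1, the main ubiquitin-activating enzyme, was at 164 CPM against 131 to 149 CPM, and the ubiquitin gene UBB was listed at 0 in all libraries.

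Several genes outside these lists, picked after their values were seen, were also extreme in BL replicate 4. The muscle ubiquitin ligase FBXO32 was at 1501 CPM against 12.3 to 39.3 CPM, a 67.2-fold ratio, and the ligase TRIM63 was 8.60-fold higher. FOXO1 and FOXO3, the transcription factors known to drive both ligases in wasting muscle, were 6.37-fold and 7.12-fold higher, and FKBP5, a glucocorticoid-induced gene, 15.8-fold higher. SQSTM1, an autophagy receptor, was 8.74-fold higher. ASNS and PHGDH, of amino acid synthesis, were at 0.07 and 0.03 times the other BL mean.

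Marker genes of the tissue also differed in that library. Of 6 measured muscle fibre markers 3 were under 0.5 times the other BL mean, and the summed level was 157809 CPM against 175256 to 286525 CPM. Of 6 fibroadipogenic markers 5, of 5 adipocyte markers 4 and of 8 endothelial markers 3 were under 0.5 times. Of 13 leukocyte markers 6 were over 2-fold and 1 was under 0.5 times, with a summed level of 528 CPM inside the range of 374 to 651 CPM of the other BL libraries. CD74 made up 413 CPM of that sum, at 0.93 times the other BL mean. Among the 6, CD163 was 5.02-fold and CD14 4.26-fold higher, both above all other BL libraries. The B cell marker MS4A1 was at 0, and at most 0.28 CPM in any other library. The part of these differences in the proteasome values was not tested.

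Apart from that library the proteasome genes varied little. The median SD within groups over the 40 genes was 0.24 on the log2 scale with all libraries and 0.15 without BL replicate 4, where that of all genes was 0.30 and 0.28. The genes compared were not matched for level, on which such an SD depends. The steadiest were the cap subunits PSMD8 and PSMD13, with SDs of 0.09 each without it. The most variable subunits were the inducible PSMB9 and PSMB8, with SDs of 0.43 and 0.37.

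Without BL replicate 4, BL had the lowest of the 7 group means for 28 of the 40 genes, as it did for 24.5% of all genes. LP-STD had the highest for 14 of the 40, as it did for 10.4% of all genes. The ratio of the highest to the lowest group mean ran from 1.09 for PSME3IP1 to 2.06 for PSMC3IP, and among subunits it was largest for PSMD14, the deubiquitinase of the cap, at 1.62. These orders are descriptions, and the tests of single contrasts follow.

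**Figure D3:**
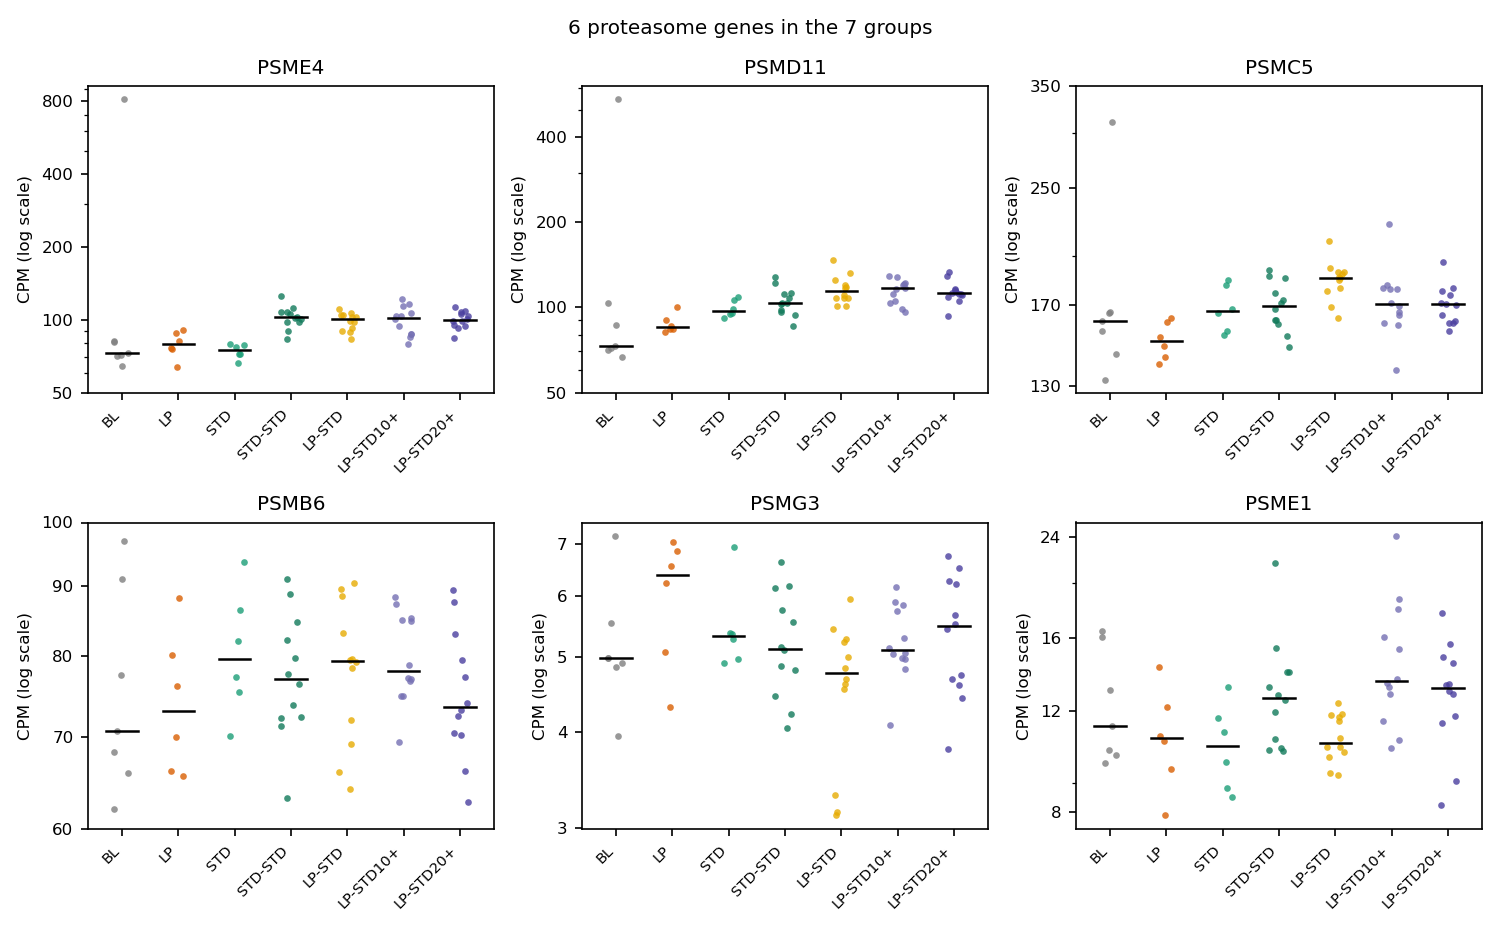
CPM of 6 proteasome genes in every library of the 7 groups, on log axes that differ between panels, with a black line at each group's median. The medians of PSME4 and PSMD11 are higher in the 4 second-period groups than in LP and STD, BL replicate 4 lies far above the other points in both, and the groups overlap for PSMB6.

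The first question was whether the low protein diet altered these genes by week 4. In LP against STD, tested on these 12 libraries with edgeR's quasi-likelihood F test and Benjamini-Hochberg adjustment over 12584 genes, no proteasome gene passed an adjusted p of 0.05 in either direction, and neither did any other gene (0% of those tested). At an unadjusted p under 0.05 there were 1 higher and 4 lower proteasome genes of 40, or 5 in all, where 9.05% of all genes reached that level. DESeq2 also called 0 of the 40.

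The lowest p belonged to PSMD3, a scaffold subunit of the cap. Its levels were 111 to 123 CPM with a median of 113 in LP, and 114 to 141 CPM with a median of 131 in STD. The lowest STD library lay among those of LP, and the other 5 lay above them. The log2 difference was -0.18 ± 0.07 (SE; edgeR adjusted p = 0.43). PSMD11 followed, at 82.1 to 100 CPM in LP and 91.9 to 109 CPM in STD, with a log2 difference of -0.18 ± 0.07 (edgeR adjusted p = 0.48). Over all 40 genes the median log2 difference was -0.05 with a median SE of 0.09, beside a median of 0.00 over all genes tested.

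In the second period the 4 diets were compared on their 48 libraries over 13032 genes. For earlier restriction alone (LP-STD against STD-STD) 0 of 40 proteasome genes and 0% of all genes passed. At an unadjusted p under 0.05, 5 proteasome genes were higher and 1 lower, against 10.1% of all genes, and DESeq2 called 0. PSMD6, a cap subunit, had the lowest p, at 36.9 to 50.2 CPM with a median of 42.2 in LP-STD and 33.3 to 44.4 CPM with a median of 38.7 in STD-STD. These ranges overlapped, and the log2 difference was 0.14 ± 0.05 (edgeR adjusted p = 0.331).

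With 10% more lysine (LP-STD10+ against LP-STD) 0 of 40 proteasome genes passed, where 0.407% of all genes did. PSME1 came nearest, at 10.3 to 24.0 CPM with a median of 13.5 in LP-STD10+ and 9.27 to 12.3 CPM with a median of 10.6 in LP-STD. The lower libraries of LP-STD10+ lay among those of LP-STD. The log2 difference was 0.46 ± 0.12 (edgeR adjusted p = 0.0615). Unadjusted, 4 genes were higher and 5 lower at 0.05, against 14.4% of all genes. DESeq2 called PSME1 higher and no other of the 40.

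With 20% more lysine (LP-STD20+ against LP-STD) 0 of 40 genes passed either, against 0.046% of all genes. PSMA7, an alpha ring subunit, had the lowest p, at 74.5 to 121 CPM with a median of 91.9 in LP-STD20+ and 84.9 to 133 CPM with a median of 109 in LP-STD. The groups overlapped through most of their ranges, with a log2 difference of -0.20 ± 0.08 (edgeR adjusted p = 0.19). Unadjusted, 5 genes were higher and 3 lower at 0.05, against 15.9% of all genes. Against the pigs that were never restricted (STD-STD), 0 of 40 genes passed for LP-STD10+, against 0.399% of all genes, and 0 of 40 for LP-STD20+, against 0% of all genes. At an unadjusted p under 0.05 these comparisons gave 2 and 0 proteasome genes, against 13% and 8.94% of all genes. DESeq2 called 0 in these 2 and in LP-STD20+ against LP-STD. The comparisons of the second period share their LP-STD or STD-STD libraries.

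Over all 12 libraries of each diet, the inducible genes had their lowest second-period means in LP-STD. For PSMB8 and PSMB9 this did not hold in the second of the 3 successive sets of libraries described below. There PSMB8 had means of 10.06 CPM in LP-STD, 10.08 in STD-STD, 9.71 in LP-STD10+ and 8.95 in LP-STD20+. PSMB9 in that set had means of 3.08 CPM in LP-STD, 2.99 in STD-STD, 3.38 in LP-STD10+ and 3.59 in LP-STD20+. PSMB8, PSMB9 and PSMB10 replace the constitutive cutting subunits in immune cells and under interferon, and PSME1 forms the matching activator. PSMB8 had a mean of 8.26 ± 1.64 CPM (SD, n = 12) in LP-STD, 10.0 ± 2.70 CPM in STD-STD, 10.8 ± 4.61 CPM in LP-STD10+ and 10.5 ± 2.68 CPM in LP-STD20+. PSMB9 had means of 2.91, 3.69, 3.68 and 3.85 CPM in that order of groups. PSMB10 had means of 6.72, 7.53, 8.31 and 8.10 CPM, and PSME1 of 10.8, 13.1, 14.8 and 13.0 CPM. Each group's libraries overlapped those of the others for all 4 genes. The summed leukocyte markers also had their lowest median in LP-STD, at 422 CPM with a range of 389 to 641 CPM. They were at 377 to 642 CPM with a median of 503 in STD-STD, 407 to 864 CPM with a median of 486 in LP-STD10+, and 386 to 751 CPM with a median of 503 in LP-STD20+. None of the 12 leukocyte markers tested passed the adjusted threshold, with median log2 differences of -0.47 in LP-STD against STD-STD, 0.70 in LP-STD10+ against LP-STD and 0.81 in LP-STD20+ against LP-STD. Their part in the values of the inducible genes was not tested.

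The differences for the inducible genes did not pass the adjusted threshold. In LP-STD20+ against LP-STD, PSMB8 had a log2 difference of 0.36 ± 0.15 (edgeR adjusted p = 0.239), PSMB9 of 0.41 ± 0.18 (0.268) and PSMB10 of 0.28 ± 0.13 (0.273). In LP-STD10+ against LP-STD, PSMB8 had 0.39 ± 0.15 (edgeR adjusted p = 0.236). In the opposite comparison of LP-STD with STD-STD, PSME1 had -0.29 ± 0.12 (edgeR adjusted p = 0.387).

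**Figure D4:**
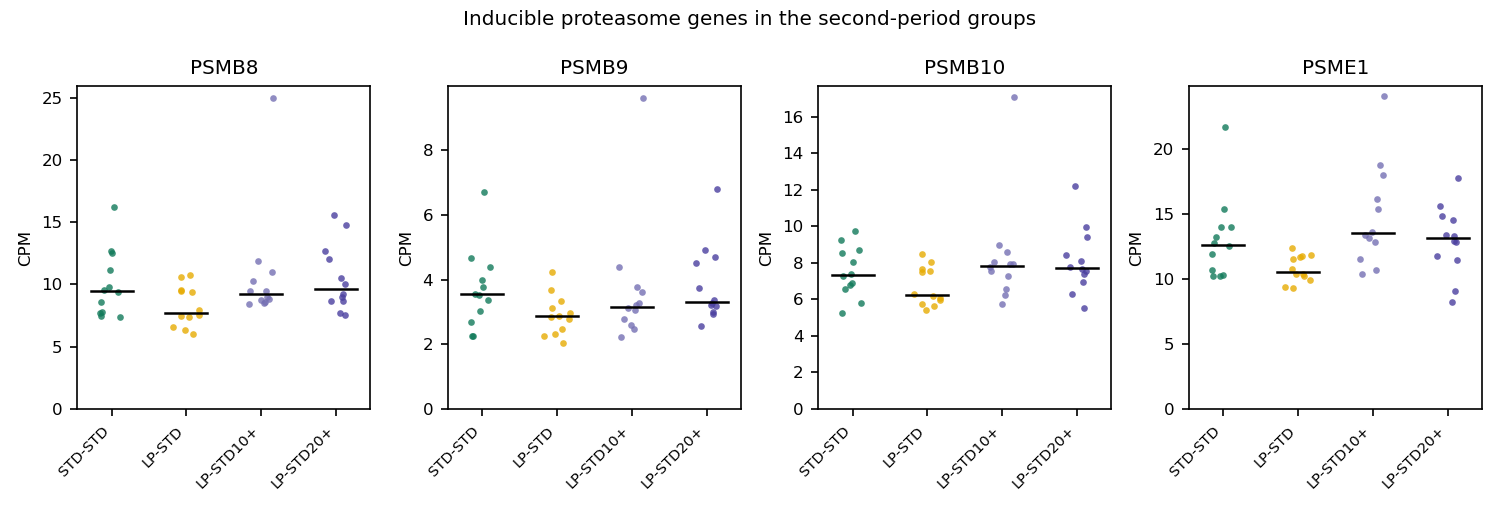
CPM of the 4 inducible proteasome genes in the 48 second-period libraries, by diet, with a black line at each median. The LP-STD median is the lowest of the 4 diets in each panel, the groups overlap, and the highest point of every panel is LP-STD10+ replicate 10, at 25.0 CPM for PSMB8.

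In these genes LP-STD10+ replicate 10 stood apart. PSMB8 was at 25.0 CPM against 8.44 to 11.9 CPM in the other 11 libraries of its group, PSMB9 at 9.60 CPM against 2.24 to 4.39 CPM, and PSMB10 at 17.1 CPM against 5.77 to 8.99 CPM. PSME1 was at 24.0 CPM against 10.3 to 18.7 CPM. The constitutive catalytic genes did not share this, with PSMB6 at 77.2 CPM inside a range of 69.4 to 88.3 CPM. In all, 9 of the 40 proteasome genes were above the other 11 libraries, as were 22.9% of all genes. The other five were PSMA1, PSMB3, PSMC3IP, PSMD10 and PSME3. The core and cap genes PSMA3, PSMC2, PSMC5, PSMD3, PSMD6, PSMD7 and PSMD13 and the activator PSME4 were below all the other 11 libraries. Among them were PSMC5 at 137 CPM against 159 to 222 CPM, PSMD7 at 79.9 CPM against 96.8 to 119 CPM, and PSME4 at 79.3 CPM against 84.9 to 122 CPM. The share of all genes below the other 11 was not counted, so these low values are not shown to be particular to proteasome genes. In the same library 8 of 13 leukocyte markers and 7 of 8 antigen-processing partners of the immunoproteasome were above the other 11, and the summed leukocyte markers were at 864 CPM against 407 to 674 CPM. MS4A1 was near 0, at 0.04 CPM.

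Without that library, a choice made after seeing the data, 0 of 40 genes passed in LP-STD10+ against LP-STD, where 0.306% of all genes did. Unadjusted, 1 was higher and 4 lower at 0.05, against 8.88%. The log2 difference of PSME1 was then 0.37 ± 0.11 (edgeR adjusted p = 0.195) and that of PSMB8 was 0.20 ± 0.13 (edgeR adjusted p = 0.651). The part of leukocytes in the higher levels was not tested further.

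PSME3 was at 16.0 to 37.6 CPM in LP-STD10+, with a median of 18.5, against 15.1 to 32.4 CPM in LP-STD20+, 16.9 to 21.3 CPM in LP-STD and 14.7 to 21.6 CPM in STD-STD. The highest value was that of LP-STD10+ replicate 10, and the next in its group was 36.5 CPM. A few libraries of LP-STD10+ lay above all of LP-STD and STD-STD, and the rest lay among them. Against LP-STD the log2 difference was 0.30 ± 0.12 (edgeR adjusted p = 0.241).

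Assembly chaperones and the inhibitor did not pass in any second-period comparison. PSMG3, a chaperone that pairs with PSMG4 to build the alpha ring, was at 3.80 to 6.76 CPM in LP-STD20+ and at 3.12 to 5.94 CPM in LP-STD, with a log2 difference of 0.24 ± 0.10 (edgeR adjusted p = 0.244). PSMF1 had group medians of 31.9 to 33.5 CPM over the 4 diets.

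The second-period libraries were numbered in 3 successive sets, each with 4 libraries of every diet. With diet in the model, 0 of 40 proteasome genes differed between the third and the first set, against 0.422% of all genes, and DESeq2 called 0. EdgeR at an unadjusted p under 0.05 gave 4 higher and 4 lower, against 12.9%. Within each set every diet had 4 libraries with consecutive numbers. Among such runs of 4 within a diet only the ATPase PSMC1 differed (edgeR adjusted p = 0.0247), against 5.68% of all genes. Its means over the 3 runs were 78.9, 61.4 and 68.8 CPM in LP-STD and 70.9, 61.0 and 69.6 CPM in STD-STD, while the means of the 4 diets were 65.8 to 69.7 CPM.

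Comparisons across the periods used all 67 libraries and 13517 genes. They set week 8 against week 4 in different pigs, and the library numbers of the first-period groups precede those of the second, so age, time on the diet and any order of processing cannot be told apart. In pigs kept on the standard diet (STD-STD against STD) 0 of 40 proteasome genes passed, where 8.01% of all genes rose and 7.89% fell. DESeq2 called 1 of the 40, and at an unadjusted p under 0.05 edgeR gave 2 higher and 1 lower, against 29.3% of all genes. In pigs moved from the low protein to the standard diet (LP-STD against LP) 1 proteasome gene rose and 2 fell, where 8.78% of all genes rose and 9.04% fell.

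PSMC5, an ATPase of the cap, rose in LP-STD against LP. It was at 163 to 210 CPM with a median of 186 in LP-STD and at 140 to 163 CPM with a median of 151 in LP. At 162.7 CPM the highest LP library lay just above the lowest LP-STD library, at 162.6 CPM, so the ranges only touched. The log2 difference was 0.28 ± 0.09 (edgeR adjusted p = 0.0232). PSMG3 fell by 0.40 ± 0.12 on the log2 scale (edgeR adjusted p = 0.0163), from 4.30 to 7.03 CPM in LP to 3.12 to 5.94 CPM in LP-STD, with ranges that overlapped. PSMC3IP fell by 1.04 ± 0.35 (edgeR adjusted p = 0.0285), at a level of 0.81 ± 0.33 CPM (SD, n = 6) in LP and 0.40 ± 0.19 CPM (SD, n = 12) in LP-STD.

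BL replicate 4 belongs to neither group but enters the estimate of spread that the 7 groups share. Without it the median SE over the 40 genes went from 0.13 to 0.07 in both comparisons. In STD-STD against STD 6 of 40 genes then rose and 1 fell, where 9.87% of all 13506 genes rose and 9.28% fell. When runs of consecutive libraries were also treated as correlated (limma voom), 3 of 40 were called in place of these 7. In LP-STD against LP 13 of 40 genes rose and 2 fell, where 11.2% of all genes rose and 9.85% fell.

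PSME4 was the clearest gene on the standard diet. It was at 83.0 to 125 CPM with a median of 102 in STD-STD, and at 66.4 to 79.2 CPM with a median of 74.7 in STD, and the 2 groups did not overlap. The log2 difference was 0.46 ± 0.27 with all libraries (edgeR adjusted p = 0.25) and 0.47 ± 0.08 without BL replicate 4 (edgeR adjusted p = 9.7e-06). In LP-STD against LP it was 0.31 ± 0.08 without that library (edgeR adjusted p = 0.00167), with levels of 83.1 to 110 CPM in LP-STD and 63.8 to 90.2 CPM in LP.

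PSMD11 had the lowest p in LP-STD against LP without BL replicate 4. It was at 101 to 148 CPM with a median of 114 in LP-STD and at 82.1 to 100 CPM with a median of 85.0 in LP, with no overlap. The log2 difference was 0.41 ± 0.08 (edgeR adjusted p = 6.88e-05), and 0.40 ± 0.22 with all libraries (edgeR adjusted p = 0.206). On the standard diet it was 0.09 ± 0.08 without that library (edgeR adjusted p = 0.438).

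By role, without BL replicate 4, all 4 measured ATPases rose in LP-STD against LP, with log2 differences of 0.20 to 0.31. PSMC5 was at 0.29 ± 0.06 (edgeR adjusted p = 0.000391) and PSMC1 at 0.31 ± 0.08 (edgeR adjusted p = 0.0036). PSMC1 was the gene that differed between runs of consecutive libraries, which this fit treats as independent. Its levels were 54.8 to 90.1 CPM in LP-STD, with a mean of 61.4 CPM in the second run, and 50.5 to 65.3 CPM in LP. Of the 10 other cap subunits 4 rose, among them PSMD1, the largest scaffold subunit, at 0.31 ± 0.07 (edgeR adjusted p = 0.000842), and PSMD7 at 0.30 ± 0.07 (edgeR adjusted p = 0.00195). In the alpha ring 3 of 5 genes rose, including PSMA4 at 0.28 ± 0.07 (edgeR adjusted p = 0.0011) and PSMA1 at 0.24 ± 0.07 (edgeR adjusted p = 0.00787).

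Beta ring genes did not pass. Their log2 differences were 0.01 to 0.15 for the 4 non-catalytic genes and 0.05 to 0.08 for PSMB6 and PSMB7, and -0.43 to -0.31 for the 3 inducible genes. Among chaperones PSMG3 fell (-0.38 ± 0.12, edgeR adjusted p = 0.0151) and 1 of 3 cap chaperones rose. Over the 40 genes the median log2 difference was 0.13, beside -0.02 over all genes tested.

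On the standard diet, without BL replicate 4, the genes that rose besides PSME4 were PSMD1 (0.29 ± 0.07, edgeR adjusted p = 0.00189), PSMA1, PSMA4, PSMC6 and PSMD8, with log2 differences of 0.13 to 0.18 for the last 4. PSMA7 fell by 0.27 ± 0.09 (edgeR adjusted p = 0.0205), from 112 to 137 CPM in STD to 76.4 to 116 CPM in STD-STD. The median over the 40 genes was 0.01, beside -0.01 over all genes.

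A change between the periods that depended on the first diet was tested as an interaction, (LP-STD minus LP) minus (STD-STD minus STD). No proteasome gene of 40 passed with all libraries, against 0.163% of all genes, and none passed without BL replicate 4, against 0.23%. At an unadjusted p under 0.05 there were 1 and 4, against 8.66% and 10.6%, and DESeq2 called 0 with all libraries. PSMD3 had the lowest p without that library, at 0.32 ± 0.08 (edgeR adjusted p = 0.0688). The different counts of genes called on the 2 diets were thus not shown to be a difference between the diets.

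Of 8 regulators of proteasome transcription, without BL replicate 4, 1 rose and 2 fell in STD-STD against STD (median log2 difference -0.02), and 1 rose and 1 fell in LP-STD against LP (median -0.01). NFE2L1 was at 239 to 296 CPM in STD-STD and 172 to 257 CPM in STD, and the log2 difference was 0.42 ± 0.08 (edgeR adjusted p = 4.8e-05). In LP-STD against LP it was 0.26 ± 0.08 (edgeR adjusted p = 0.00956). NFE2L2 fell by 0.39 ± 0.08 (edgeR adjusted p = 0.000552) and 0.24 ± 0.08 (0.0336) in these comparisons. POMP and ADRM1 were not called on the standard diet, and ADRM1 rose by 0.21 ± 0.08 in LP-STD against LP (edgeR adjusted p = 0.038).

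Of 10 proteasome-associated proteins 6 rose and none fell in LP-STD against LP without BL replicate 4, where 11.2% of all genes rose, led by UCHL5, a deubiquitinase on the cap, at 0.55 ± 0.08 (edgeR adjusted p = 1.03e-06), and the ligase UBE3C at 0.34 ± 0.06 (edgeR adjusted p = 6.92e-05). On the standard diet 1 of 10 rose, UCHL5, a share near the 9.87% of all genes. Of 8 VCP complex genes 4 rose in each comparison, including VCP at 0.25 ± 0.05 in LP-STD against LP (edgeR adjusted p = 0.000468) and 0.26 ± 0.05 on the standard diet (edgeR adjusted p = 0.000367). In LP-STD against LP without that library, 5 of 6 fibroadipogenic markers, 1 of 13 leukocyte markers and the 1 erythroid marker tested fell. In STD-STD against STD, 2 of 8 endothelial markers and 1 of 6 muscle fibre markers fell and 1 of 13 leukocyte markers rose. The part of these markers in the proteasome values was not tested.

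**Figure D5:**
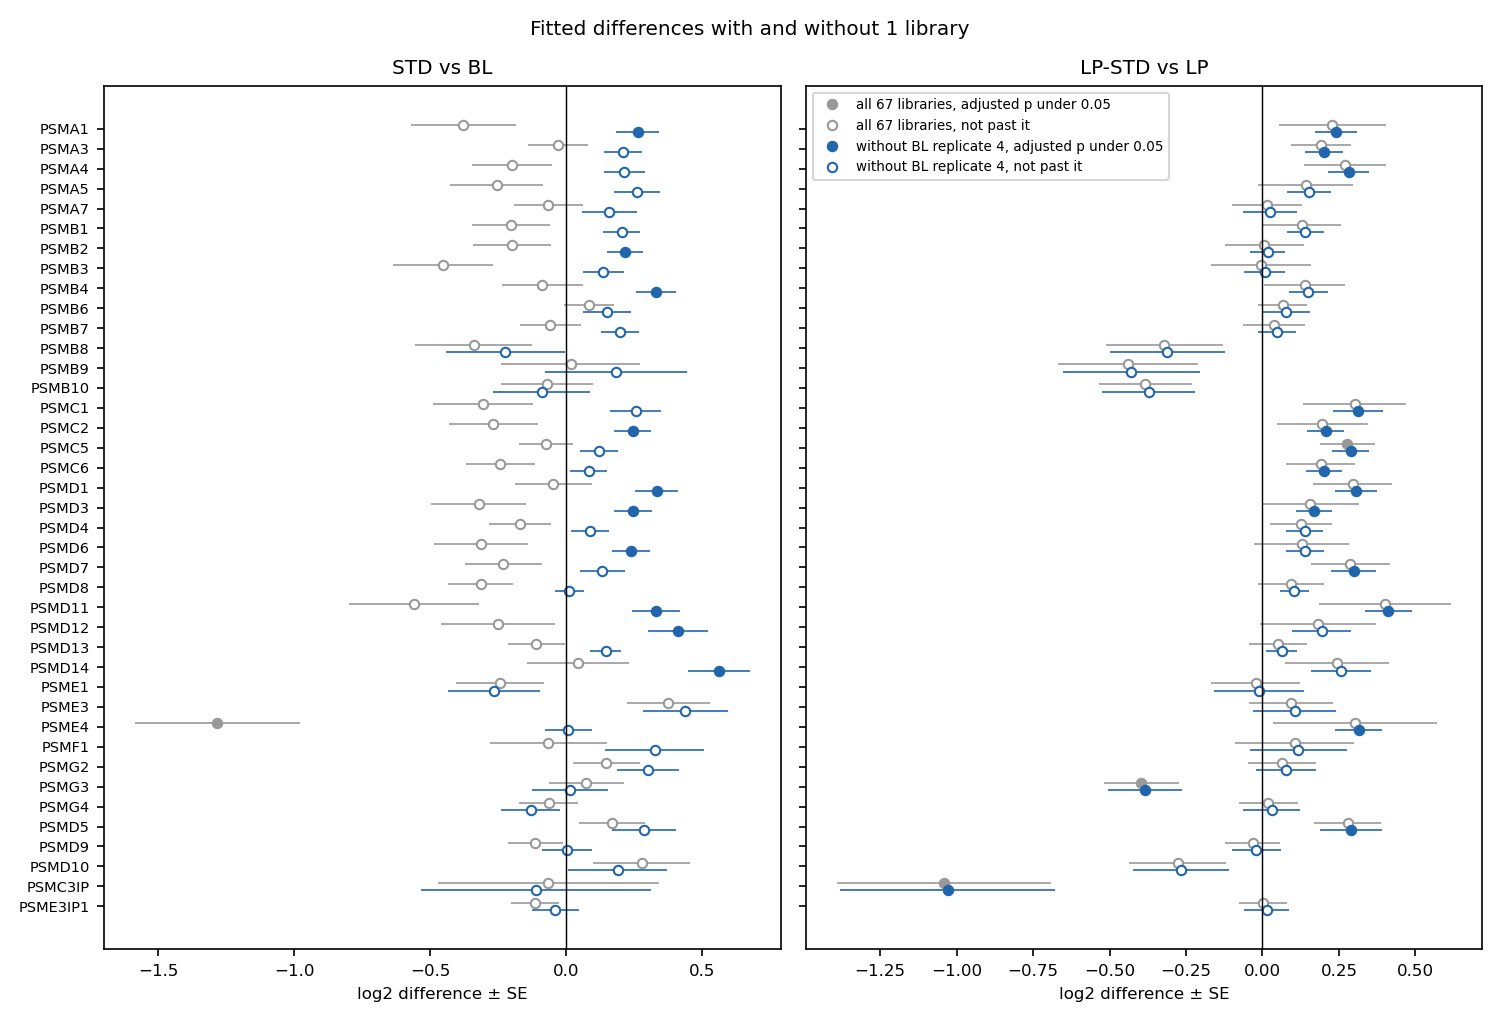
Log2 differences ± SE of the 40 proteasome genes in STD against BL (left) and LP-STD against LP (right), fitted with all 67 libraries (grey) and without BL replicate 4 (blue), with filled points at an adjusted p under 0.05. On the left most points move from below to above 0 when that library is left out. On the right they stay in place while the bars shorten, and 15 instead of 3 are filled.

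The last comparisons set the first-period diets against BL. With all libraries 1 proteasome gene of 40 fell and none rose in STD against BL, where 4.08% of all genes fell and 2.62% rose. This was PSME4, with a log2 difference of -1.28 ± 0.30 (edgeR adjusted p = 0.00465). In LP against BL 2 of 40 fell and none rose, where 4.02% of all genes fell and 2.44% rose. These were PSME4 at -1.18 ± 0.30 (edgeR adjusted p = 0.01) and PSMD11 at -0.74 ± 0.24 (edgeR adjusted p = 0.0491). At an unadjusted p under 0.05, 1 gene was higher and 4 lower in STD against BL, against 20.3% of all genes, and 10 were lower in LP against BL, against 21.2%.

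These calls rested on BL replicate 4. In BL, PSME4 was at 81.5, 71.1, 72.6, 813, 81.1, 71.1 and 64.4 CPM in replicates 1 to 7, and in STD at 77.1, 72.0, 78.5, 79.2, 66.4 and 72.3 CPM. Apart from that value the groups lay in one range. Without BL replicate 4 its log2 difference was 0.01 ± 0.09 in STD against BL (edgeR adjusted p = 0.978) and 0.10 ± 0.09 in LP against BL (edgeR adjusted p = 0.592). PSMD11 was then at 0.33 ± 0.09 (edgeR adjusted p = 0.0171) and 0.15 ± 0.09 (0.393).

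Without that library 10 of 40 genes rose and 0 fell in STD against BL, where 2.37% of all genes rose and 2.47% fell, and 4 of 40 rose and 0 fell in LP against BL, where 1.55% of all genes rose and 2.33% fell. No call was shared between the fits with and without it, and the sign of the difference changed for 26 of the 40 genes in each comparison. The median over the 40 genes was 0.19 in STD against BL and 0.11 in LP against BL, beside 0.00 over all genes in both. Both comparisons use the same BL libraries. Marker genes of other cell types were also called without replicate 4. In STD against BL 1 of 13 leukocyte markers rose (median log2 difference 0.45) and 0 of 6 fibroadipogenic markers (median -0.02). In LP against BL 2 of 13 leukocyte markers (median 0.51) and 2 of 6 fibroadipogenic markers (median 0.36) rose. Their part in the proteasome values was not tested.

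PSMD14, which removes ubiquitin chains as proteins enter the core, had the lowest p in STD against BL without replicate 4. In BL it was at 16.7, 28.6, 23.6, 96.2, 19.6, 31.2 and 24.5 CPM in replicates 1 to 7, and in STD at 29.5, 37.9, 44.4, 29.0, 41.7 and 30.9 CPM. Apart from replicate 4, the highest BL library reached the lower STD libraries. The log2 difference was then 0.56 ± 0.11 (edgeR adjusted p = 0.00127) in STD and 0.43 ± 0.11 (edgeR adjusted p = 0.0165) in LP, where the levels were 27.9 to 39.7 CPM.

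PSMB4, a beta ring subunit, was at 49.8, 58.6, 51.5, 191, 59.4, 61.4 and 62.0 CPM in BL. It was at 64.4 to 82.4 CPM in STD and 65.9 to 74.3 CPM in LP, so that without replicate 4 neither group overlapped BL. The log2 differences were then 0.33 ± 0.07 in STD (edgeR adjusted p = 0.00304) and 0.25 ± 0.07 in LP (edgeR adjusted p = 0.0334). PSMD1 was at 0.33 ± 0.08 in STD (edgeR adjusted p = 0.00666) and 0.29 ± 0.08 in LP (edgeR adjusted p = 0.0244).

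By role, the 10 genes that rose in STD against BL without replicate 4 were 6 of the 10 non-ATPase subunits of the cap, PSMD1 and PSMD14 among them, 1 of 4 ATPases and 3 genes of the core. The ATPase was PSMC2, at 0.24 ± 0.07 (edgeR adjusted p = 0.0232). PSMD12 was at 0.41 ± 0.11 (edgeR adjusted p = 0.0163). In the core, PSMA1 was at 0.26 ± 0.08 (edgeR adjusted p = 0.0353), and 2 of 4 non-catalytic beta ring genes rose, PSMB4 among them. PSMB6 and PSMB7 had log2 differences of 0.15 and 0.20 and did not pass, and no inducible gene, activator, inhibitor or chaperone passed.

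These counts for BL varied with single further libraries. With BL replicate 4 left out and each other library of the groups compared left out in turn, 3 to 15 genes were called in STD against BL and 0 to 6 in LP against BL, with 0 lower in each fit. Of the genes around the proteasome, NFE2L1 had log2 differences of 0.04 ± 0.09 in STD and 0.12 ± 0.09 in LP against BL without replicate 4 (edgeR adjusted p = 0.869 and 0.502), and UBQLN1 rose in both, by 0.37 ± 0.08 and 0.30 ± 0.08 (edgeR adjusted p = 0.00266 and 0.0205).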

How the data were processed

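The authors deposited whole-number read counts by gene symbol for 67 libraries, with no normalization. The submitters' processing notes name the pig build Sscrofa11.1 and DESeq2, and per the labels' protocols a Qiagen RNeasy Plus Universal kit yielded the RNA. No aligner, counter or strand setting is given in these sources, so reads of overlapping genes and of close copies cannot be assigned with certainty. Positions came from RefSeq, where 41 of 42 symbols matched.

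Tests ran in R 4.3.3 with edgeR 4.0.16, using its default filterByExpr, TMM factors and the robust quasi-likelihood F test. Benjamini-Hochberg values covered every gene tested, with a threshold of 0.05. The fits held 12 libraries for LP against STD, 48 for comparisons inside the second period and all 67 otherwise. Each SE is the absolute log2 difference divided by the square root of F. The code was checked on simulated counts. Figures were drawn in Python 3.11.15 with matplotlib 3.10.9. The closest pair of libraries correlated at 0.976, and none were merged.

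The genes and lists were chosen with earlier results of these data known. Statistics are printed for members past the threshold, at most 8 by lowest p in each direction, or for the 3 lowest p where none passed, and for a preset group of catalytic, activator, inhibitor and chaperone genes. For the lists of genes around the proteasome they are printed for genes past the threshold with the lowest p. NFE2L1, NFE2L2, POMP and ADRM1 could be named in any comparison. A gene named in one comparison or fit was also followed in others. The genes outside these lists that are described in BL replicate 4 are said to be picked afterwards. Results were recomputed with RLE factors, DESeq2 1.42.0, other low-count filters, other libraries in the fit, blocks for library set and replicate number, correlated runs in limma 3.58.1 voom, and single libraries left out.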

Additional observations from a re-analysis of the deposited data

Results flagged for a closer look

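In BL, LP and STD the gap between the most extreme library and its nearest neighbour was compared with the range of the group, by Dixon's 95% critical value. Chance marks about 1 in 20 groups, and 40 genes were examined in each of the 3 groups. In BL 28 of 40 genes were marked, in each case for a high value of BL replicate 4, as were 13% of all 13517 genes. Over all genes and for any library, 20.5% were marked in BL, 7.1% in LP and 8.06% in STD.

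In the core these were PSMA1 (144 CPM), PSMA3 (121 CPM), PSMA4 (155 CPM), PSMA5 (105 CPM), PSMA7 (232 CPM), PSMB1 (145 CPM), PSMB2 (86.3 CPM), PSMB3 (85.7 CPM), PSMB4 (191 CPM) and PSMB7 (101 CPM). In the ATPase ring they were PSMC1 (224 CPM), PSMC2 (335 CPM), PSMC5 (311 CPM) and PSMC6 (154 CPM). Among other cap subunits they were PSMD1 (215 CPM), PSMD3 (476 CPM), PSMD4 (186 CPM), PSMD6 (138 CPM), PSMD7 (243 CPM), PSMD8 (148 CPM), PSMD11 (547 CPM), PSMD12 (130 CPM), PSMD13 (169 CPM) and PSMD14 (96.2 CPM). The rest were the chaperone PSMD9 (19.8 CPM), PSME3IP1 (25.9 CPM), the activator PSME4 (813 CPM) and the inhibitor PSMF1 (90.5 CPM).

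Elsewhere PSMB7 was low in LP replicate 3, at 42.9 CPM. PSME3IP1 was low in STD replicate 4, at 15.0 CPM, and PSMG3 was high in STD replicate 2, at 6.94 CPM.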

How the results depend on the processing

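Among recomputed counts of proteasome genes called, 99 stayed within 1.5 times the value reported and 53 did not, most of them in fits without a BL library. DESeq2 called 1 gene in LP-STD10+ against LP-STD, 1 in STD-STD against STD, 7 in LP-STD against LP, 1 higher in STD against BL and 2 lower in LP against BL, and it replaced the counts of 4 genes in BL replicate 4 as outliers. With only the groups compared in the fit, 3 genes were called in STD-STD against STD, 14 in LP-STD against LP, 0 in STD against BL and 0 in LP against BL. Correlated runs gave 0 in both BL comparisons (3 in STD-STD against STD, 14 in LP-STD against LP, 9 in STD against BL and 4 in LP against BL when BL replicate 4 was also left out), and no filter gave 1 in LP against BL. The replicate number as a block gave 5 in LP-STD against LP, 0 in STD against BL and 0 in LP against BL. No comparison had all pairs of equal replicate number correlated above 0.1, and in LP-STD against STD-STD 6 of 12 pairs were. Such values cannot show whether the numbers pair any of the pigs. The block changed no other count by over 1.5 times. Leaving out libraries, alone or with BL replicate 4 (the latter chosen after seeing the data), gave 0 in LP against STD, 1 to 15 in STD against BL, 0 to 6 in LP against BL, 7 in STD-STD against STD and 15 in LP-STD against LP. Without BL replicate 4 the sign changed for 26 of 40 genes in each BL comparison and for 1 of 40 in STD-STD against STD and in LP-STD against LP. In LP-STD10+ against STD-STD, PSMB8 was at 0.10 with and -0.085 without LP-STD10+ replicate 10. Among genes called in either fit, log2 differences in STD against BL ranged over these fits from -1.43 to 0.0073 for PSME4, -0.49 to 0.26 for PSMA1, -0.28 to 0.22 for PSMB2, -0.18 to 0.33 for PSMB4, -0.36 to 0.24 for PSMC2, -0.13 to 0.33 for PSMD1, -0.69 to 0.33 for PSMD11, -0.37 to 0.41 for PSMD12, -0.086 to 0.56 for PSMD14, -0.41 to 0.24 for PSMD3 and -0.41 to 0.24 for PSMD6. In LP against BL they ranged from -0.87 to 0.15 for PSMD11, -1.33 to 0.10 for PSME4, -0.26 to 0.25 for PSMB4, -0.17 to 0.29 for PSMD1, -0.21 to 0.43 for PSMD14 and -0.40 to 0.25 for PSMD6. DESeq2 gave 0.20 for PSMA1, 0.26 for PSMD11 and 0.34 for PSMD12 in STD against BL, and 0.074 for PSMD11 and 0.042 for PSME4 in LP against BL. Correlated runs gave 0.081 for PSMB4, 0.10 for PSMD1 and 0.074 for PSMD12 in STD against BL, and 0.014 for PSMB4, 0.069 for PSMD1 and 0.16 for PSMD14 in LP against BL. The cause of the changes other than those without BL replicate 4 was not tested.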
